A study of Mus musculus with 45 samples.

Results

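Ly6a, Ly6c1, Ly6e, Ly6h and Thy1 are 5 mouse genes for small surface proteins that are held in the cell membrane by a lipid anchor. They were taken by name from the deposited gene table, where each had a row, and make up 5 of its 23575 genes. The study used long-read RNA sequencing to follow neural progenitors as factors turned them into pluripotent cells. All progenitors came from the Oct4-GFP line O4G, an R1 line of embryonic stem cells that reports Oct4 with GFP. They were stably transfected with a doxycycline-inducible factor set, OKMS or OKS (genotype labels OKMS-Luciferase-AS and OKS-Luciferase-AS, the role of the luciferase element not being stated), or were wild type. Both names stand for Oct4, Klf4 and Sox2, and OKMS adds Myc.

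Libraries were made with 2 chemistries, which the labels call R9 and R10. In R9 (22 libraries) poly(A)-enriched RNA was read as direct cDNA. In R10 (23 libraries) total RNA without that enrichment was amplified as PCR cDNA. Progenitors at day 0 grew in serum-free medium with EGF, FGF-2 and heparin (R9 and R10: 2 wild type, 1 OKMS and 1 OKS each). Induction used LIF, 1 µg/mL doxycycline and fetal bovine serum, a medium called serum-LIF-dox here. Each factor set gave 1 R9 library at each of days 2, 4, 6, 10, 14 and 20. The R10 libraries were of OKMS at days 2, 4, 6, 10 and 18 and of OKS at days 2, 6 and 18. Wild-type progenitors without factors were held in the same serum-LIF-dox for 2 days as the non-reprogramming control (1 R9, 2 R10). For part of the cultures the medium was changed to 2i-LIF, in which LIF is joined by the kinase inhibitors CHIR-99021 and PD0325901. These gave OKMS at day 14 and OKMS and OKS at day 20 in R9, after a move at day 6, and OKMS and OKS at day 18 in R10, where the day of the change is not stated. Embryonic stem cells, grown in 2i-LIF, are 2 libraries in R9 (O4G and R1) and 7 in R10 (2 O4G, 2 of R1 clone 3 and 3 R1, of which 1, called replicate 3 here, had no n number in its label). Whether R9 and R10 libraries of 1 culture condition were made from the same RNA is not given in the labels, so the chemistries may not be independent and an n over both counts libraries. No label says that libraries of a group came from separate cultures, so the p-values below measure only the spread between these libraries. That spread may be technical where a group has more than 1 library. Induced cultures have 1 library per system, day, medium and chemistry. In their comparisons the spread also holds differences between systems or days that the fit leaves.

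Ly6 proteins share a compact, finger-shaped fold with the urokinase receptor uPAR, and the family is therefore called Ly6/uPAR. Ly6a encodes Sca-1, a surface antigen long used to sort blood stem and progenitor cells, and Ly6c1 encodes one form of Ly6C, a marker of monocytes and some T cells and endothelial cells. Ly6e is broadly expressed and induced by interferon, and Ly6h is a brain-enriched member that binds nicotinic acetylcholine receptors. Thy1, or CD90, is not a Ly6 protein but a single immunoglobulin domain on the same kind of anchor. It marks neurons, T cells and fibroblasts, and its loss from the surface is a widely used early sign of fibroblast reprogramming.

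The Ly6 members lie in 1 cluster on chromosome 15 and Thy1 lies on chromosome 9, by GENCODE M21 on GRCm38. Ly6e (ENSMUSG00000022587.14) spans chr15:74955051-74959905 on the plus strand. Ly6a (ENSMUSG00000075602.10) spans chr15:74994877-74998031, Ly6c1 (ENSMUSG00000079018.10) chr15:75044018-75048830 and Ly6h (ENSMUSG00000022577.17) chr15:75551268-75567255, all on the minus strand. Thy1 (ENSMUSG00000032011.5) spans chr9:44043384-44048579 on the plus strand.

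Ly6c1 has a near-identical neighbour, Ly6c2, and Ly6a is a more distant relative, which bears on how surely a read can be given to one of them. The first 90 coding bases from the start codon, from GENCODE M21, are printed here for Ly6c1, Ly6c2 and Ly6a, since reads of these genes have to be told apart by such differences. Capitals mark the bases that differ from Ly6c1 in an ungapped comparison.
Ly6c1: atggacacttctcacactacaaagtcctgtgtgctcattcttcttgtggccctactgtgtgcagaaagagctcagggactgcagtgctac
Ly6c2: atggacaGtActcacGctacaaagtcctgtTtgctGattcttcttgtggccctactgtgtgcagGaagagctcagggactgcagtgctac
Ly6a: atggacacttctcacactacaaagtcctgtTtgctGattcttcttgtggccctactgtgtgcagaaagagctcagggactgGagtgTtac
Ly6c2 differs from Ly6c1 at 6 of these bases and Ly6a at 4, while over the whole coding sequence the order is the reverse. Over the aligned coding sequence, Ly6c1 and Ly6c2 are 97.7% identical over 393 bases, and Ly6a and Ly6c1 are 83.7% identical over 393 aligned bases with 9 gap bases. Ly6a and Ly6e are 59.2% identical by the same alignment. Ly6c2 itself was not analysed here, so reads under Ly6c1 could include reads of Ly6c2, and values of Ly6c1 and Ly6a carry that uncertainty. A gene listed as antisense to Ly6c1 overlaps both, and whether the counting used strand is not stated. Of the 5 members only Ly6c1 had an entry in the RefSeq promoter table (GRCm38.p6). The 250 bases before its annotated start, which gave the smaller part of its transcripts as shown further on, held no match on either strand to a STAT site (TTCNNNGAA), the ISRE core, an AP-1 site (TGANTCA) or an E-box (CACGTG). In windows of the same length, 7.02%, 2.98%, 6.75% and 6.02% of 32851 promoters held them in that order.

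R9 libraries held 447990 to 1390424 reads and R10 libraries 566599 to 4236442. Values below are CPM, the reads of a gene scaled to a common library size, so a low CPM in an R9 library can rest on a single read. Markers of the labelled cell types were high where the labels place them. The summed CPM of 7 neural progenitor markers was 3491 to 6026 in R9 progenitors and 18 to 23.3 in R9 stem cells, and that of 7 pluripotency markers was 10.8 to 28.7 and 11114 to 12615. Late serum-LIF-dox cultures are here those of days 14 and 20 in R9 and of day 18 in R10. Their pluripotency sum ran from 539 to 8581 in R9 and was 4894 and 14847 in R10, so these cultures were unequal. In R10 the share of reads from mitochondrial genes moved with several groups. It was 1.81% to 2.35% in the 6 numbered stem cell libraries and 0.124% in R1 replicate 3, 0.153% and 0.273% in wild-type progenitors, and 1.12% or 1.08% in uninduced OKS and OKMS. In all these bulk libraries, fewer cells of a type and less RNA per cell cannot be told apart.

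**Figure D1:**
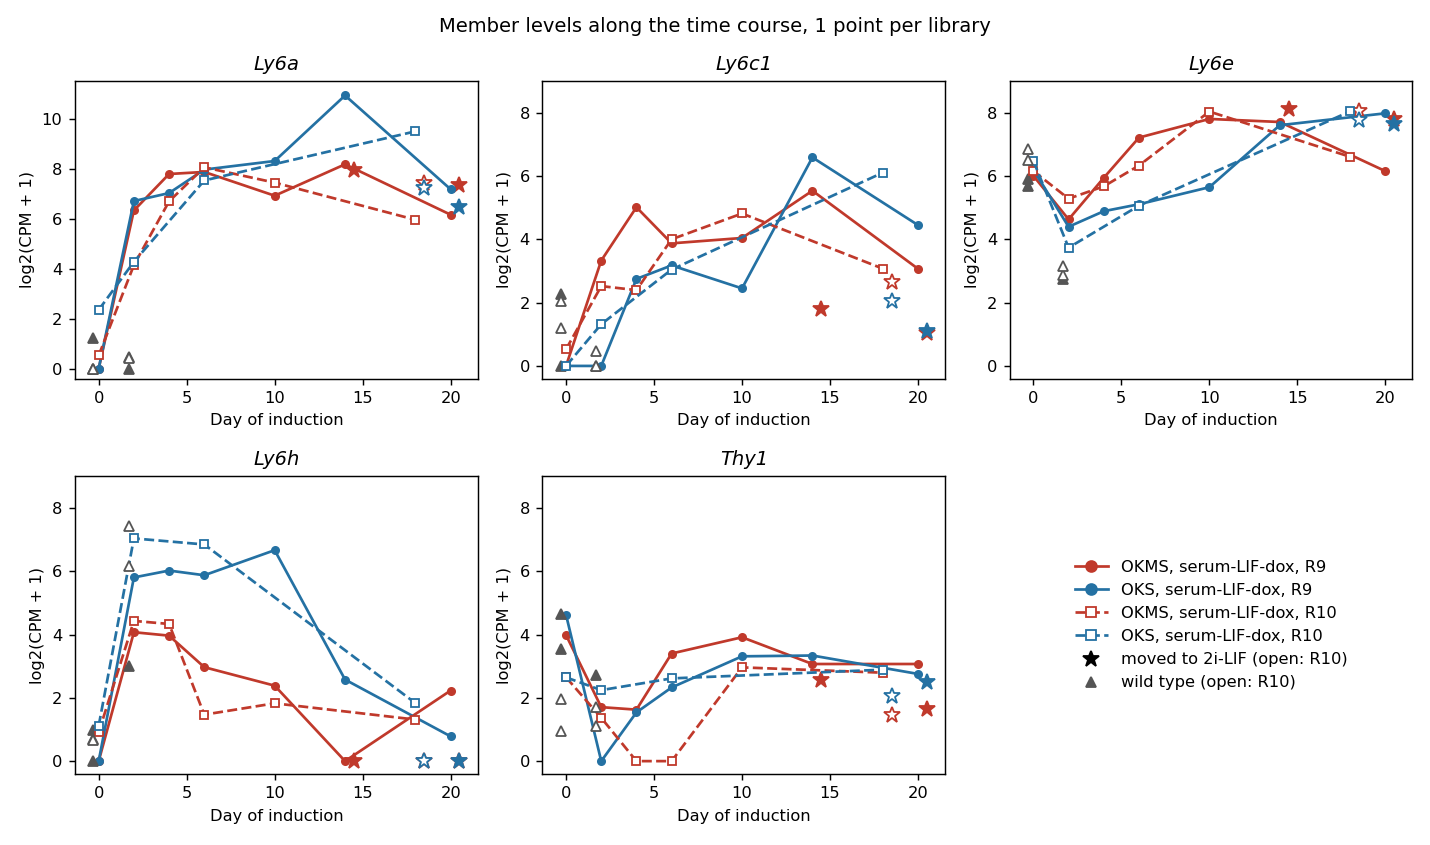
Level of each of the 5 genes (log2 of CPM + 1, vertical axis) against day after induction (horizontal axis), 1 point per library, OKMS in red, OKS in blue, R9 as filled points with solid lines and R10 as open points with dashed lines. Stars mark cultures in 2i-LIF. Triangles mark wild-type cells, at day 0 in progenitor medium and at day 2 in serum-LIF-dox. Ly6a was above the progenitors in both systems from day 2, Ly6e had its lowest induced values at day 2, and Ly6h was high to day 10 in OKS and low in every library after day 10.

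The tests were limma on log2(CPM + 1) over all genes with enough signal, and a gene was called at an adjusted p under 0.05 with a difference of at least 1 on the log2 scale. Of the members, 3 of 4 tested were called between stem cells and progenitors in R10, where 45.8% of all genes tested were called, and 3 of 4 in R9, where the share was 36%. Serum-LIF-dox on wild-type progenitors called 2 of 4 members against 26.8% of all genes. Factors against wild type at day 2 in R10 called 1 of 5 members against 0.74%, and the R9 time course 3 of 5 against 10.7%. OKMS against OKS called 1 of 5 against 18%, 2i-LIF against serum-LIF-dox 1 of 4 against 12.3%, reprogrammed cells in 2i-LIF against stem cells 1 of 4 against 3.36%, and late serum-LIF-dox cultures against stem cells 3 of 4 against 17.4%. Uninduced OKMS and OKS progenitors did not differ from wild type by this rule at any gene, 0% of 13647 tested, with 1148 genes at an unadjusted p under 0.05, 2 called by edgeR and 9 by DESeq2. A gene too low for the test in 1 arm was tested only because the other arm was high, which fixes the direction of its call to a large degree. That holds for Ly6a between stem cells and progenitors, for Ly6h in serum-LIF-dox on wild type, for Ly6a in factors at day 2 and for Ly6a, Ly6c1 and Ly6h in the time course, so their counts above describe these genes and carry no weight against the share of all genes. Comparisons that name the same group, such as stem cells, late cultures or wild-type controls, share its libraries, so their results are not independent of one another.

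**Figure D2:**
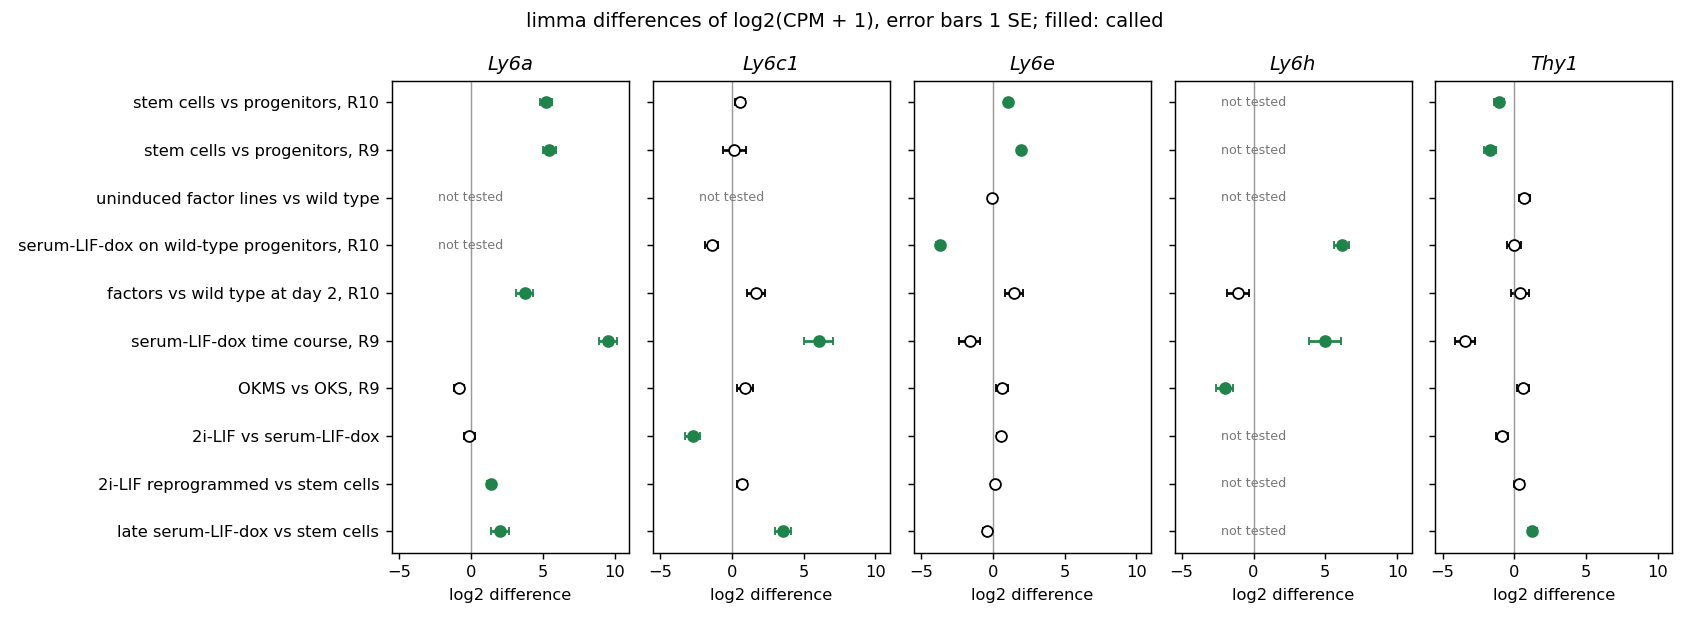
Log2 difference (horizontal axis, limma on log2(CPM + 1), bars ± 1 SE) of each tested member in the 10 comparisons, with filled points for calls. Ly6a has filled points in 6 comparisons, all to the right, the only filled point of Ly6c1 to the left is that of 2i-LIF against serum-LIF-dox, and those of Thy1 to the left are the 2 of stem cells against progenitors.

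Ly6a, the gene of Sca-1, was close to absent in progenitors and present in every induced library. In R9 progenitors its level was 1.34 CPM in wild-type replicate 1, a single read, and 0 in the other 3 libraries. In R10 it was 0.439 CPM in OKMS, 4.09 in OKS and 0 in both wild-type libraries. Serum-LIF-dox without factors left it low, at 0 CPM in R9 and at 0.391 and 0.329 in R10, which is 1 read per library.

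With factors in the same medium, Ly6a was above every progenitor from the first time point. In R9 its OKMS levels at days 2, 4, 6, 10, 14 and 20 were 79.1, 219, 232, 119.6, 287 and 70.2 CPM. In OKS the levels at the same days were 103, 129, 248, 315, 1939.8 and 143 CPM. The OKS library of day 14 stood far above all others, and no induced library reached down to the progenitors. Against the uninduced OKMS and OKS progenitors of R9, which had 0 reads, and a floor of 3 reads over both libraries (2.25 CPM), the mean was at least 40.5-fold higher at day 2 and at least 107-fold higher at day 6. It was at least 495-fold higher at day 14, a value that rests on the OKS library, since OKMS alone was 128 times the floor. At day 20 the mean was at least 47.4-fold higher, with OKMS alone at 31.2 and OKS alone at 63.6 times the floor. The fitted differences from day 0 were 6.51, 7.40, 7.91, 7.61, 9.55 and 6.66 on the log2(CPM + 1) scale (F test of limma, adjusted p = 9.13e-05), and without day 14 the largest was 7.91.

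In R10 the induced libraries were again all above the progenitors. Ly6a was at 16.6, 102, 264, 172 and 60.8 CPM in OKMS at days 2, 4, 6, 10 and 18, and at 18.3, 183 and 717 CPM in OKS at days 2, 6 and 18. At day 2 the R9 values, 79.1 and 103 CPM, lay above both R10 values, while at day 6 the chemistries overlapped. The R10 values of day 2 were also below all 9 stem cell libraries. With the medium held the same, the R10 factor libraries of day 2 were 3.76 ± 0.59 (SE) above wild type on the log2 scale (limma adjusted p = 0.0235, n = 2 against 2). The R10 factor libraries had 1.51% and 1.64% of reads from mitochondrial genes and the wild type 0.319% and 0.165%, and the part of that gap in the result was not tested. The call depended on every library but one: the adjusted p was 0.504 without OKMS, 0.237 without OKS and 0.547 without wild-type replicate 3, and the difference was 3.83, 3.69 and 3.73. It was 3.63 (0.0628) after quantile normalization and 6.51 (0.321) in R9, where the wild type was 1 library.

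Stem cells kept Ly6a at an intermediate level. It was at 48.3 and 59.6 CPM in R9 stem cells, at 50.6 and 114 in R10 O4G, at 74.8 and 78.2 in R1 clone 3, and at 36.3, 77.4 and 32.5 in R1. All 9 libraries lay above all 8 progenitor libraries. The difference from progenitors was 5.24 ± 0.43 in R10 (limma adjusted p = 2.95e-08) and 5.47 ± 0.46 in R9 (2.32e-04). With the 6 numbered R10 libraries only it was 5.38 (1.61e-08), and with the R1 library without n number, which had the lower mitochondrial share, as the only stem cell library 4.35 (0.0538).

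Cultures moved to 2i-LIF held Ly6a above stem cells in the same medium. They had 247 and 162 CPM in R9 OKMS at days 14 and 20, 87.3 in R9 OKS at day 20, and 169 and 150.2 in R10 OKMS and OKS at day 18. Only the R9 OKS library fell within the range of the stem cells. The difference was 1.42 ± 0.28 (limma adjusted p = 0.00574), and within R9 it was 1.48 (0.0615). Late serum-LIF-dox cultures were 2.03 ± 0.65 above stem cells (limma adjusted p = 0.0298). The difference was 2.81 without the R10 OKMS library of day 18. The call was lost without the R10 OKS library of that day (1.41, adjusted p = 0.177), without R9 O4G (1.91, 0.0803) and without R9 R1 (2.01, 0.0686), and within R9 (2.33, 0.358) or R10 alone (1.77, 0.0745).

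The comparison of 2i-LIF with serum-LIF-dox, media that differ in more than 1 component, gave no call for Ly6a. Among the 5 pairs of 1 system, day and chemistry, 2i-LIF was higher in 2 and lower in 3, with a difference of -0.10 (limma adjusted p = 0.897). By mean over libraries, the order was progenitors (0.733 ± 1.43 CPM, SD, n = 8), stem cells (63.6 ± 25.6, n = 9), 2i-LIF cultures (163 ± 56.9, n = 5) and late serum-LIF-dox cultures (536 ± 729.7, n = 6). Without the R9 OKS library of day 14 the last mean was 256 ± 273 CPM (n = 5). The 2i-LIF cultures all fell within the range of the late serum-LIF-dox cultures. OKMS and OKS did not differ by the rule (-0.81, limma adjusted p = 0.0855). OKMS was the higher in 1 of 6 R9 days, and leaving out day 4 gave -1.13 (0.0316). Sca-1 and Ly6C also mark endothelial and blood cells. The summed CPM of 5 endothelial markers was 241 to 433 in R9 progenitors, 36.8 to 219 in induced R9 libraries of days 2 to 6 and 13.5 to 115 at days 10 to 20. Blood markers, of which 2 of 5 had a row, reached at most 1.36 and 2.46 CPM in the last 2. The part of such cells in the values of Ly6a and Ly6c1 was not tested.

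**Figure D3:**
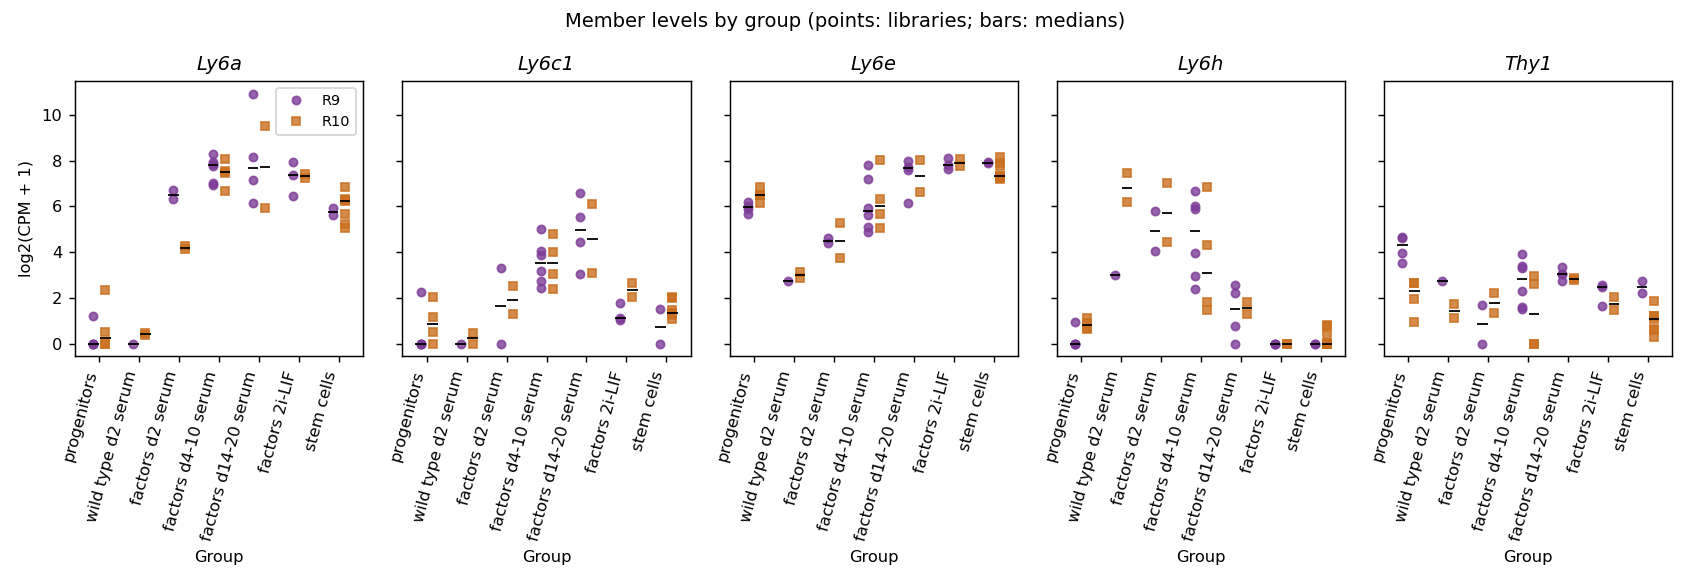
Level of each gene (log2 of CPM + 1, vertical axis) in 7 groups of libraries (horizontal axis), R9 in purple and R10 in orange, 1 point per library, with bars at medians. Ly6a is near 0 in progenitors and wild-type controls and at 32.5 CPM or more in all stem cells, Ly6e is lowest in the wild-type controls, and Ly6h is high in the R10 wild-type controls and in part of the factor libraries up to day 10. OKMS and OKS are not marked apart here.

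Ly6c1, the neighbour that encodes Ly6C, was near the detection limit in progenitors and stem cells and appeared in the induced cultures. Progenitors had 0 to 3.87 CPM in R9, where wild-type replicate 2 was the only library above 0, and 0 to 3.16 CPM in R10. In R9 it was at 9.04, 31.3, 13.6, 15.5, 45.4 and 7.39 CPM in OKMS at days 2, 4, 6, 10, 14 and 20, and at 0, 5.72, 8.03, 4.46, 95.1 and 20.8 CPM in OKS. Day 14 was the highest day in both systems. In R10 OKMS had 4.74, 4.26, 15.0, 27.2 and 7.42 CPM at days 2, 4, 6, 10 and 18, and OKS had 1.49, 7.25 and 67.9 CPM at days 2, 6 and 18.

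The time course called Ly6c1, with a largest difference of 6.06 ± 1.02 at day 14 (F test of limma, adjusted p = 0.0301). Against the floor of 3 reads the mean of day 14 was at least 31.3-fold higher than uninduced progenitors, and that of day 4 at least 8.24-fold. Both rest on 1 system more than the other, since at day 14 OKMS alone was 20.2 and OKS alone 42.3 times the floor, and at day 4 the values were 13.9 and 2.55. Without day 14 the largest difference was 3.88 and the call was lost (adjusted p = 0.110), as it was in R10 (4.60, 0.151). Wild-type cells in serum-LIF-dox had 0 CPM in R9 and 0.391 and 0 CPM in R10, where the difference from progenitors was -1.38 (limma adjusted p = 0.0699). This difference was called with the shared replicate numbers as a block (-1.38, limma adjusted p = 0.0176) and after quantile normalization (-1.72, 0.0441). Factors against wild type at day 2 gave 1.68 (limma adjusted p = 0.244), with 1.08 without OKMS and 2.28 without OKS.

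Ly6c1 was the only member called between the media. In 2i-LIF it was at 2.44, 1.07, 1.16, 5.29 and 3.13 CPM against 45.4, 7.39, 20.8, 7.42 and 67.9 CPM in the serum-LIF-dox library of the same pair, so it was lower in 5 of 5 pairs. The difference was -2.72 ± 0.51 (limma adjusted p = 0.00141), and -2.24 (0.263) in the 2 R10 pairs alone. Stem cells had 0 and 1.86 CPM in R9 and 1.12 to 3.19 CPM in R10. Late serum-LIF-dox cultures were 3.57 ± 0.56 above them (limma adjusted p = 1.66e-04), or 4.15 in R9 alone (0.0861), and none of the 6 overlapped the 9 stem cell libraries. Without 1 library each the difference was 3.12 to 4.33, the highest without the R10 OKMS library of day 18. Of the 5 cultures in 2i-LIF, 4 lay within the range of the stem cells and R10 OKMS, at 5.29 CPM, above it, with a difference of 0.72 (limma adjusted p = 0.225).

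Stem cells and progenitors did not differ in Ly6c1 by the rule (0.57, limma adjusted p = 0.141 in R10, and 0.19, 0.866 in R9), and the sign turned under several alternatives, to -0.11 with wild-type R10 progenitors only and to -0.57 without the R9 R1 library. OKMS and OKS differed by 0.91 (limma adjusted p = 0.236), with OKMS higher in 4 of 6 R9 days. Over days 2, 4 and 6 alone the difference was 2.10 (0.0270), and over days 10, 14 and 20 it was -0.28.

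Ly6e had reads in every library, 4 in the lowest, and it fell when progenitors met serum-LIF-dox without factors. Progenitors had 58.8 and 50.3 CPM in R9 wild type, 63.3 in OKMS and 72.5 in OKS, and 116 and 90.7 in R10 wild type, 70.3 in OKMS and 88.2 in OKS. After 2 days in serum-LIF-dox the wild-type libraries had 5.66 CPM in R9 and 6.26 and 7.91 in R10, the lowest values of the whole series. The R10 difference was -3.68 ± 0.28 (limma adjusted p = 0.00184, n = 2 against 2). It was -3.54 (0.0545) without treated replicate 2, and the adjusted p was 0.164 and 0.171 without progenitor replicate 2 or 3. In R9, with 1 treated library, it was -3.06 (0.0743).

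Induced cells were at 23.7 CPM in OKMS and 20.1 in OKS at day 2 in R9 and at 37.9 and 12.3 in R10, above every wild-type control library but below every progenitor. The factor difference at day 2 was 1.50 (limma adjusted p = 0.294), with 0.73 without OKMS and 2.28 without OKS. Ly6e then went on at 60.5, 147, 222, 208 and 70.2 CPM in R9 OKMS at days 4, 6, 10, 14 and 20, and at 28.6, 33.5, 49.1, 194 and 252 CPM in OKS. OKMS was above all R9 progenitors at days 6, 10 and 14, and OKS only at days 14 and 20. In R10 OKMS had 50, 79.5, 261 and 96.4 CPM at days 4, 6, 10 and 18, and OKS had 32.4 and 262 CPM at days 6 and 18.

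The limma F test of the time course did not call Ly6e (largest difference -1.59 at day 2, adjusted p = 0.102), while median centring (0.0309), edgeR (4.96e-16) and DESeq2 (0.00310) did. Without day 2 the largest difference was 1.55, at day 14. OKMS was above OKS on 5 of 6 R9 days, by 0.64 (limma adjusted p = 0.260). That became 1.13 (0.0115) without day 20 and 1.13 (0.0316) over days 2, 4 and 6.

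Ly6e levels of the 2i-LIF cultures fell within the range of the stem cells. They were 275, 221, 197, 266 and 216 CPM, against 236 and 244 in R9 stem cells and 145 to 281 (median 161) in R10. The difference was 0.17 (limma adjusted p = 0.602), and late serum-LIF-dox cultures differed from stem cells by -0.38 (0.387), neither of which shows equal levels. At the last serum-LIF-dox day OKMS, at 70.2 CPM in R9 and 96.4 CPM in R10, lay below all 9 stem cell libraries, and OKS, at 252 and 262 CPM, within their range. The media differed by 0.57 (limma adjusted p = 0.148), with 2i-LIF higher in 3 of 5 pairs. Stem cells were above progenitors by 1.96 ± 0.17 in R9 (limma adjusted p = 2.40e-04) and by 1.05 ± 0.19 in R10 (1.49e-04), without overlap in either chemistry. The R10 difference sat at the required size of 1, and was 0.95 and 0.99 without R1 clone 3 replicate 1 or 2, 0.93 without OKMS progenitors, 0.86 with wild-type progenitors only, and 0.74 (0.138) with the R1 library without n number alone. The R10 minus R9 difference of this contrast was -0.92 (limma adjusted p = 0.0840 over 18341 genes).

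Ly6h, the brain-enriched member, rose in wild-type cells in serum-LIF-dox, where Ly6e fell. Progenitors had at most 0.968 CPM in R9 and 1.17 CPM in R10. Wild-type cells after 2 days in serum-LIF-dox had 7.07 CPM in R9 and 173 and 71.5 CPM in R10. The R10 difference was 6.13 ± 0.49 (limma adjusted p = 0.00201, n = 2 against 2), with no overlap. It was 5.50 (0.0525) without treated replicate 2 and 6.76 without replicate 3, the adjusted p was 0.164 and 0.171 without progenitor replicate 2 or 3, and R9 gave 2.52 (0.230). The summed CPM of 4 astrocyte markers was also higher in these libraries. It was 42.6 to 181 in R10 progenitors and 1188 and 3057 in the treated ones, and 72.2 to 135 in R9 progenitors and 265 in the treated one. Its part in the Ly6h result was not tested. Ly6h and Thy1 are also expressed by neurons, and the summed CPM of 5 neuron markers was 1.69 to 10.6 in R9 progenitors, 25.7 to 515 in induced R9 libraries of days 2 to 6, 84.8 to 988 at days 10 to 20 and 318 to 405 in R9 stem cells, where 3 of the 5 (Rbfox3, Snap25 and Syt1) were at 0. The part of these genes in the values of Ly6h and Thy1 was not tested.

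Induced cells also had Ly6h, and the factor systems parted. In R9 OKMS it was at 15.8, 14.6, 6.82, 4.22, 0 and 3.69 CPM at days 2, 4, 6, 10, 14 and 20. In OKS it was at 54.8, 63.9, 57.6, 100.4, 4.96 and 0.719 CPM. OKS held a high level to day 10 while OKMS was low from day 6. The R10 series gave 20.6, 19.2, 1.77, 2.55 and 1.48 CPM in OKMS at days 2, 4, 6, 10 and 18, and 130.2, 114 and 2.56 CPM in OKS at days 2, 6 and 18.

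OKMS was below OKS in Ly6h by 2.02 ± 0.56 on the log2 scale (limma gave -2.02, adjusted p = 0.0185), on 5 of 6 R9 days. The adjusted p was 0.0564 without day 4, 0.0705 without day 6 and 0.0667 without day 10, where the difference was -1.56, and over days 10, 14 and 20 alone it was 0.346 (-1.80). In R10 OKS was higher on 3 of 3 matched days (-2.83, limma adjusted p = 0.241). The time course called Ly6h with a largest difference of 4.99 ± 1.10 at day 4 (F test of limma, adjusted p = 0.0273), and against the floor of 3 reads the mean was at least 15.7-fold higher at day 2, where OKMS alone was 7.04 and OKS alone 24.4 times the floor. At day 10 it was at least 23.3-fold higher, a value that rests on OKS, since OKMS alone was 1.88 times the floor. That call was lost without day 2 (0.0611), day 4 (0.0520) or day 14 (0.0503), after quantile normalization (0.0669) and in R10 (4.72, 0.150). At day 2 in R10 the OKMS library (20.6 CPM) lay below both wild-type controls and the OKS library (130.2 CPM) between them (-1.08, limma adjusted p = 0.519, and -2.38 to 0.23 without 1 library each).

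Ly6h was not detected in the reprogrammed cultures of 2i-LIF and was at or near 0 in stem cells. It had 0 of 3811542 reads in the 5 reprogrammed libraries, which allows up to 0.787 CPM, counting error only. Stem cells had 0 in both R9 libraries and in 4 of 7 R10 libraries, and at most 0.775 CPM, so it was too low to be tested between stem cells and progenitors. Late serum-LIF-dox cultures had 0 to 4.96 CPM, and in the media pairs 2i-LIF was lower in 4 of 5, with 0 in both media in the fifth pair, which was too few reads to be tested.

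Thy1 was low throughout, with its highest value in R9 progenitors. In R9 progenitors it was at 10.7 and 24.2 CPM in wild type, 14.8 in OKMS and 23.6 in OKS. In R10 it was at 0.953 and 2.87 CPM in wild type, 5.27 in OKMS and 5.26 in OKS, all below all R9 values. In R9 OKMS it was at 2.26, 2.09, 9.55, 14.1, 7.39 and 7.39 CPM at days 2, 4, 6, 10, 14 and 20, and in OKS at 0, 1.91, 4.02, 8.92, 9.10 and 5.75 CPM. All 4 libraries of days 2 and 4 were below every R9 progenitor. The fitted differences from the uninduced OKMS and OKS lines were -3.45 and -2.72 on the log2 scale (limma). These values rest on 2 reads in all at day 2 and 3 at day 4, and the F test did not call Thy1 (adjusted p = 0.0543), while a minimum of 5 CPM (0.0291), median centring (0.0275) and edgeR (0.00570) did.

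In R10 Thy1 was at 1.58, 0, 0, 6.79 and 5.94 CPM in OKMS at days 2, 4, 6, 10 and 18 and at 3.73, 5.12 and 6.40 CPM in OKS at days 2, 6 and 18, around the low R10 progenitors. Serum-LIF-dox on wild-type progenitors gave 5.66 CPM in R9, below the progenitors, and 1.17 and 2.31 CPM in R10, with a difference of -0.04 (limma adjusted p = 0.967). Factors at day 2 gave 0.38 (0.808), and OKMS against OKS 0.59 (0.305) with OKMS higher on 5 of 6 R9 days and on 0 of 3 in R10.

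Stem cells were below progenitors in Thy1, by 1.71 on the log2 scale in R9 (limma -1.71 ± 0.41, adjusted p = 0.0151) and by 1.06 in R10 (-1.06 ± 0.35, 0.0140). Stem cells had 5.68 and 3.72 CPM in R9 and 0.236 to 2.71 CPM (median 1.12) in R10, where they overlapped the wild-type progenitors. In R9 the call was lost without O4G (-1.96, 0.0843) or R1 (-1.46, 0.156) and with wild-type progenitors only (-1.61, 0.0695). In R10 the difference was under 1 without O4G replicate 1 (-0.94), R1 replicate 1 (-0.99), OKMS progenitors (-0.86, 0.0594) or OKS progenitors (-0.86, 0.0591), and under median centring (-0.82), and fell just short of that size without R1 clone 3 replicate 1. With wild-type progenitors only it was -0.46 (0.334), and with the R1 library without n number alone -0.97 (0.415).

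Late serum-LIF-dox cultures were above stem cells in Thy1 by 1.25 ± 0.34 (limma adjusted p = 0.0115), with 5.75 to 9.10 CPM in 6 libraries, all above the 9 stem cell libraries. The late libraries were mostly of R9 and the stem cells mostly of R10, where Thy1 was lower in progenitors and stem cells. Within R9 the gap was small, 5.75 CPM (8 reads, OKS day 20) against 5.68 CPM (6 reads, O4G stem cells). Without the R10 OKS library of day 18 the difference was 1.05 (0.0621), and in R9 alone 0.57 (0.603). Cultures in 2i-LIF had 4.89, 2.15, 4.66, 1.76 and 3.13 CPM, lower than serum-LIF-dox in 5 of 5 pairs (-0.87, limma adjusted p = 0.219) and within the spread of stem cells (0.32, 0.648). Fibroblast markers, 7 genes that include collagens, summed to 9.85 to 146 CPM in R9 at days 10 to 20 and to 2.84 to 4.65 CPM in R9 stem cells, and to 13.5 to 213 CPM in R9 progenitors. Their part in the Thy1 values was not tested.

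Before induction neither of the 2 members with enough signal was called between the factor lines and wild type. Ly6e differed by -0.03 (limma adjusted p = 0.978) and Thy1 by 0.69 (0.649). In R10 Thy1 was higher in both factor lines (5.27 and 5.26 CPM) than in both wild-type libraries (0.953 and 2.87 CPM), while in R9 the factor lines lay within the wild-type range.

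Of 43 other genes listed for the Ly6/uPAR family, 17 had a row, and 5 to 16 were tested in a comparison. Counts below are of listed genes. That each of them, Ly6g6f included, encodes a protein of the Ly6/uPAR fold was not checked. In R10 stem cells against progenitors 11 were tested, where 45.8% of all genes were called. Of these, 7 were too low in progenitors to be tested without the stem cells, and 6 of the 7 were called higher, Ly6g6e (4.96) and Ly6k (3.73) in front, a direction the filter on low values largely sets. Of the 4 that reached 1 CPM in all progenitors, 1 was higher, Cd59a (3.09), a shield against complement, and 1 lower, Lypd1 (-2.79), which like Ly6h binds nicotinic receptors. In R9 (36% of all genes called) 7 of the 10 tested passed in progenitors alone, 1 higher and 2 lower, and the other 3 were called higher. After serum-LIF-dox on wild-type progenitors (26.8% of all genes) 4 of the 6 tested passed in the untreated cells alone, and 3 of these 4 were higher, Cd59a by 6.59 and Lypd1 by 3.98 among them. Of the other 2, Cd59b was higher by 4.24. With factors at day 2 (0.74% of all genes) 1 of 7 was called, Ly6g6f (3.69), which was too low in the wild type to be tested without the factor libraries. Over the time course (10.7% of all genes) 16 were tested, 11 of them only through induced libraries. The 4 called were all higher. They were Cd59a (6.62) and Ly6g6f (4.30) among those 11, and Plaur (4.02), the urokinase receptor itself, and Lypd1 (3.71) among the 5 that passed in the uninduced lines.

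Some of these relatives had calls in the direction of a member's call. For the comparisons of relatives that follow, it was not checked which genes were tested only through 1 arm. Their counts therefore describe these genes and carry no weight against the share of all genes. Lypd1 (-2.52), Psca (-1.46) and Lynx1 (-1.31) were lower in OKMS than in OKS, 3 of 10 with none higher against 18% of all genes, as was Ly6h. By edgeR 1 of these 10 was called and by DESeq2 2. Plaur (-3.30) and Psca (-2.56) were among 3 of 11 lower in 2i-LIF than in serum-LIF-dox (12.3% of all genes), as was Ly6c1, while Ly6k was higher (1.86). Late serum-LIF-dox cultures had Plaur (2.88) and Psca (2.53) above stem cells and 2 lower, Cd59b by -2.0 the larger, of 10 tested (17.4% of all genes). Between 2i-LIF cultures and stem cells 1 of 10 was called (3.36% of all genes), Lynx1 (1.34), and by edgeR and DESeq2 0. Uninduced lines and wild type had 0 of 5 called, 0 at an unadjusted p under 0.05, and 0 by edgeR and DESeq2.

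Of 31 listed genes that build and attach the lipid anchor itself, 28 had a row, and their counts are given beside the share of all genes, a difference that was not tested. Stem cells had 3 of 27 higher and 5 lower than progenitors in R10, where 45.8% of all genes were called, with Pigl (3.29) and Piga (2.23), both of early steps of anchor synthesis, and Pigt (-2.22), of the transamidase that attaches proteins, in front. In R9 the counts were 1 higher, Pigl (2.62), and 3 lower, Pigc (-2.27) and Pigt (-1.87) in front, against 36%. Serum-LIF-dox on wild type had 3 higher and 1 lower of 27 against 26.8%, with Pigb (1.79), Piga (-1.74) and Pigc (1.50). Over the time course 2 of 28 were called against 10.7%, both lower, Mppe1 (-2.62), which remodels the anchor, and Pigp (-1.57). OKMS against OKS called 1 of 28 against 18%, Pigc (-1.08), which neither edgeR nor DESeq2 called (0 each). Between the media 2 of 27 were called against 12.3%, Mppe1 (2.14) and Pigl (1.20), both higher in 2i-LIF. Late cultures had 1 of 27 above and 3 below stem cells against 17.4%, with Mppe1 (-2.13), Pigl (-1.86) and Piga (-1.56). At day 2 the factors called 0 of 28 against 0.74% (4 at an unadjusted p under 0.05, 0 by edgeR, 1 by DESeq2), 2i-LIF cultures against stem cells 0 of 27 against 3.36% (6, 0 and 0) and uninduced lines 0 of 27 (2, 0 and 0).

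The deposited transcript models, built from long reads, gave first exons for Ly6a and Ly6c1. Starts below are the first bases of these models, and whether transcription begins there was not tested. Values are transcript TPM, a unit per length, summed over the 45 libraries. Of 29 kept transcripts of Ly6a, 9 did not begin upstream of the annotated start and held 51.0% of the TPM. Their first bases lay inside the gene (-425 to -95 bases from that start, with upstream counted as positive). The leading one, with 32.1%, matched an annotated transcript at all splice sites (876 bases, 4 exons, 134 codons of predicted coding sequence). A further 4 began about 28 kb upstream and held 35.7%. Their leading form, with 28.5% of all Ly6a TPM, had 5 exons and 980 bases, a first exon at chr15:75025742-75025881, 27850 bases before the annotated start, and 169 predicted codons. Another 15 began about 77 kb upstream (13%) and 1 about 161 kb upstream (0.362%). Library by library, this 28 kb form was above the leading annotated one in 9 of 9 stem cell libraries (medians 49.1% and 27.5% of Ly6a TPM) and in 5 of 5 2i-LIF cultures (37.6% and 21.7%). In the 20 serum-LIF-dox cultures with factors it was above in 10 and below in 10 (33.6% and 31.3%). The order in the sum over libraries therefore rests on libraries with much Ly6a. Annotated genes at the upstream first exons all lie on the opposite strand. The first exon of 1 of the 4 transcripts of 28 kb overlapped the pseudogene Gm28069, those of 9 of the 15 of 77 kb the pseudogene Gm5960, in both cases without the leading transcript, and that of the 161 kb transcript Ly6g.

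For Ly6c1 the upstream start was the leading one in the sum over libraries, where libraries with much Ly6c1 weigh most. Its main transcript (75.4% of TPM, 1492 bases, 5 exons, 131 predicted codons) had a first exon at chr15:75074405-75075005, 26175 bases before the annotated start, in the same region as the 77 kb first exons of Ly6a. This exon overlapped the opposite-strand pseudogene Gm5960 by 234 bases. The 2 transcripts from the annotated start held 19.9% and 1 from 6 kb upstream 4.70%. All Ly6a and Ly6c1 transcripts had canonical splice sites and none carried the file's mark for template switching. Thy1 had 2 transcripts, the leading one a full match of 1734 bases with 79.3%. Ly6h had 15, with 46.9% in a full match of 1398 bases and 160 codons. Ly6e was spread over 21, with 19.2% in the leading one of the sum over libraries. Another form was above it in 2i-LIF cultures (24.2% against 19.2%) and in stem cells (17.9% against 16.5%). The kept Ly6e transcripts held little of its signal, 0.140 TPM for each CPM at the median, so its shares describe a small part of it. Ly6c1, Ly6h and Thy1 had 1.18 to 1.41. Ly6a had 0.640 (0.302 to 1.01 by library), although its leading forms are shorter and a unit per length gives short forms more. The Ly6a shares by start may therefore also describe only a part of its signal.

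**Figure D4:**
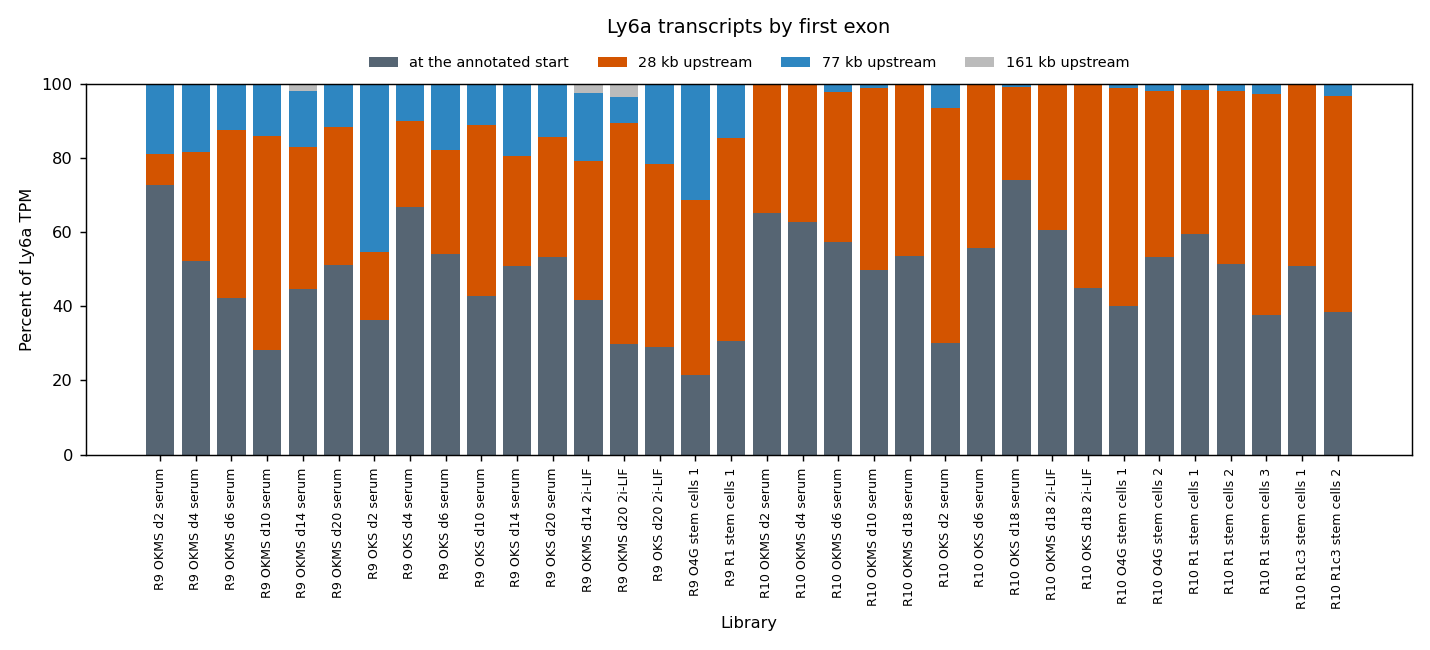
Share of Ly6a TPM (percent, stacked bars) by start region (annotated, which means not upstream, and about 28, 77 and 161 kb upstream) in each library with at least 10 TPM of Ly6a. The 77 kb share is 7.17% to 45.2% in R9 libraries and at most 6.62% in R10 libraries.

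The 77 kb share of Ly6a TPM differed between chemistries, and the 28 kb share had a lower mean in late serum-LIF-dox cultures than in stem cells. Among libraries with at least 10 TPM of Ly6a, 17 of each chemistry, the 77 kb share was 15.1% at the median in R9 (7.17% to 45.2%) and 1.20% in R10 (0% to 6.62%), without overlap. The 28 kb share was 37.4% at the median in R9 (8.43% to 59.5%) and 46.5% in R10 (25.1% to 63.2%). In late serum-LIF-dox cultures it was 34.8% ± 7.51 (SD, n = 6), and in stem cells 50.9% ± 7.30 (n = 9), a difference of -16.1 percentage points (two-sided exact permutation test, p = 0.0022, adjusted over 2 such relations 0.0044). With labels permuted only within a chemistry, the mean of the within-chemistry differences was -15.9 points (exact permutation p = 0.00556, adjusted over the 2 relations 0.0111, 540 arrangements). It was -16.7 in R9 (exact p = 0.0667, the smallest possible there) and -15.1 in R10 (exact p = 0.0833). Serum-LIF-dox cultures with factors of days 2 to 10 were not in this test. Their 28 kb share was 32.1% ± 16.4 in R9 (SD, n = 8) and 44.8% ± 10.3 in R10 (n = 6). Late cultures had means of 34.3% and 35.8%, so in R9 a low mean was not particular to them. Within the 5 media pairs the 2i-LIF minus serum-LIF-dox difference was -7.15, 29.9, -0.785, 22.2 and 17.0 points, higher in 3 of 5 (mean 12.2 ± 15.7, exact sign-flip permutation p = 0.25, smallest possible 0.0625). These tests were chosen after the shares had been seen.

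Genes whose levels followed a member most closely over the 22 R9 libraries are given as a description, since these libraries share systems and days. For Ly6a they were Ngfr (Pearson 0.969, and 0.925 over the 23 R10 libraries), Fetub (0.930 and 0.791) and Timp1 (0.914 and 0.859), among 13164 genes ranked. For Ly6c1 they were Gchfr (0.835 and 0.665), 2200002D01Rik (0.823 and 0.767) and the joined gene Ly6g6f_Ly6g6d (0.820 and 0.557). Ly6e had Dnah14 (0.905 and 0.535), Hvcn1 (0.901 and 0.619) and Parp1 (0.894 and 0.787). Ly6h had Pcp4 (0.951 and 0.949), Art3 (0.936 and 0.948) and Fbxo32 (0.929 and 0.870), all close in both chemistries. The partners of Thy1 did not carry over, with Tgif2 at 0.816 and 0.277, Etv5 at 0.808 and 0.114 and Bnip1 at 0.742 and -0.0835. The Spearman values over R9 were 0.806, 0.700 and 0.760 for the partners of Ly6a and 0.885, 0.900 and 0.943 for those of Ly6h. Between members, Ly6a and Ly6c1 had a Pearson correlation of 0.675 in R9 and 0.709 in R10, and Ly6e and Ly6h of -0.617 and -0.895.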

How the data were processed

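The gene table held CPM values, made by the authors from reads counted to genes, and the transcript table TPM values, also deposited by the authors. Minimap2 2.24-r1122 and the build mm10 are named in the submitters' processing notes. The counting program's use of strand is not given in the sources used here. All deposited CPM values were whole multiples of a library's step within 0.02 reads (100% of values), which gave reads and depth. The table held 13 columns that matched no sample and were not used.

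limma 3.58.1 (R 4.3.3) was fitted to log2(CPM + 1) with a trended prior, over genes with at least 1 CPM in as many libraries as the smaller arm (time course 2, OKMS against OKS 6, media pairs 5). P-values are two-sided and Benjamini-Hochberg adjusted over all genes tested. Differences on this scale understate changes of low genes. The time course had the system as an additive term, OKMS against OKS the day and the media the pair as a block, and comparisons over both chemistries had the chemistry as a term. The script was tested on simulated data. edgeR 4.0.16 and DESeq2 1.42.0 on recovered reads were alternatives. Coordinates and coding sequences come from GENCODE M21, and start regions from first exons of the deposited transcripts. The members, the family, anchor and marker lists and the tests were chosen with earlier results of these data known. Named relatives are at most the 3 called genes of a list with the largest difference, beside Lypd1 in R10 stem cells and in the time course, which was named after its values were seen, and likeness took genes with at least 5 CPM in at least 4 R9 libraries.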

Additional observations from a re-analysis of the deposited data

Results flagged for a closer look

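These values stood apart from the rest of a group of 4 libraries by Dixon's ratio, which flags about 1 in 20 groups by chance where no values are tied. Ly6a was at 1939.8 CPM in the R9 OKS culture of day 14 in serum-LIF-dox, against 287 CPM in the nearest of the late R9 cultures. Ly6a was at 4.09 CPM in the R10 OKS progenitors, against 0.439 CPM in the nearest R10 progenitors. Among R9 progenitors, Ly6a at 1.34 CPM (1 read, wild-type replicate 1), Ly6c1 at 3.87 CPM (4 reads, wild-type replicate 2) and Ly6h at 0.968 CPM (1 read, wild-type replicate 2) were each the only value above 0. With 3 tied zeros any single read is marked, so these 3 say no more than that reads were found in 1 library.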

How the results depend on the processing

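Of 674 alternative values of single members, 583 kept their direction and their side of the threshold, 52 lost a call, 12 gained one and 27 changed sign, and quantile normalization and median centring turned none. Only members called in the main fit could lose a call, and only uncalled ones could gain one. The 674 values are therefore not the base of the 52 or of the 12. Leaving out 1 library, day or pair at a time, the number of members called ranged from 1 to 3 (stem cells against progenitors, R10), 2 to 3 (R9), 0 to 0 (uninduced lines), 0 to 2 (serum-LIF-dox on wild type), 0 to 1 (factors at day 2), 1 to 3 (time course), 0 to 2 (OKMS against OKS), 1 to 1 (media), 1 to 1 (2i-LIF against stem cells) and 1 to 3 (late cultures against stem cells). It was 0 with the R1 library without n number as the only stem cell library and 1 with wild-type R10 progenitors only. It was 0 with R9 in place of R10 for serum-LIF-dox on wild type, and 0 for factors at day 2 both so and after quantile normalization. For the time course it was 5 under median centring, 5 by edgeR and 1 in R10. Median centring called 2955 and edgeR 4573 of all 19357 genes tested there, against 2078 in the main fit. For OKMS against OKS it was 3 over days 2, 4 and 6, 0 over days 10, 14 and 20 and 0 in R10. It was 0 for the media in R10 pairs only, and 0 in R9 only for 2i-LIF and 0 for late cultures against stem cells. The causes were not tested. For settings that changed the libraries, the share of all genes called is not given, so these counts describe the members only. Where an arm was left with 1 library, that library was assumed to vary like the others of the fit.

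The members that changed sign were not called before or after, and values without a library are given as the range. Between stem cells and progenitors, Ly6c1 was -0.11 with wild-type R10 progenitors only. In R9 it was -0.30 by edgeR, -0.016 by DESeq2, -0.57 to 0.95 without 1 library each, turning without R1 and, at -0.0031, without wild-type replicate 1, OKMS or OKS progenitors, and -0.38 with wild-type progenitors only. Between uninduced lines and wild type, Ly6e was -0.14 to 0.11, above 0 without R10 OKMS or wild-type replicate 2, and 0.31 in R9. For serum-LIF-dox on wild type, Thy1 was -0.53 to 0.46, above 0 without treated replicate 2 or progenitor replicate 3. For factors at day 2, Ly6h was -2.38 to 0.23, above 0 without OKMS, and 1.92 in R9, and Thy1 was -0.055 to 0.82, below 0 without OKS, and -1.88 in R9. In the time course, Ly6e was -1.59 to 1.55, above 0 without day 2. For OKMS against OKS, Ly6a was 0.098 over days 2, 4 and 6, Ly6c1 -0.28 over days 10, 14 and 20 and -0.29 in R10, and Thy1 -1.19 in R10. For the media, Ly6a was -0.49 to 0.43, above 0 without R9 OKS day 20 or R10 OKS day 18, and 0.092 in R9 pairs. For 2i-LIF against stem cells in R9, Ly6e was -0.068 and Thy1 -0.25.

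With the replicate block for serum-LIF-dox on wild type, 2 members were called as without it, and Ly6c1 (-1.38, limma adjusted p = 0.0176) took a call that it had also after quantile normalization (-1.72, 0.0441). The numbers 2 and 3 are shared by the labels only. The correlation of deviations was 0.474, which is 1 value and not 2, since with 2 libraries in each arm their deviations mirror each other. Over all genes, factors at day 2 called 114 (110 higher) by limma, 29 after quantile normalization, 399 (289 higher) under median centring, 334 by edgeR and 464 by DESeq2, the time course 2078 against 4573 by edgeR, and 2i-LIF against stem cells 502 against 223 by edgeR and 300 by DESeq2. Median centring moved the split of OKMS against OKS from 990 higher and 1577 lower to 1438 and 1234, and the median of all genes in the time course from 0.63 to -0.45. The lower Ly6a share from 28 kb upstream in late cultures than in stem cells was -16.7 points in R9, -15.1 in R10 and -15.9 permuted within chemistry, alternatives chosen after seeing the data, and -18.5 to -14.2 without 1 library each. Low depth limits low values of Thy1, Ly6c1 and Ly6h, and of Ly6a in progenitors and wild-type controls, some of which rest on single reads.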

Other observations

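A gene named as antisense to Ly6c1 has 2 kept transcripts on the plus strand, between 74994877 and 75093457 of chromosome 15, opposite Ly6a and Ly6c1. It had reads in 15 of 22 R9 libraries and in 1 of 23 R10 libraries. Its highest level, 24.0 CPM or 29 reads, was in the R9 OKS culture of day 14, where Ly6a was at 1939.8 CPM, and over the 22 R9 libraries its level had a Pearson correlation of 0.825 with that of Ly6a. Since use of strand in counting is not stated, reads of this gene and of Ly6a or Ly6c1 cannot be told apart with certainty. A joined gene of Ly6c1 and Ly6a had 1 read in each of 3 libraries.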
